A study of Mus musculus with 2 samples.

Results

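The genes described here are 31 transcripts that type I interferon is known to raise, from antiviral effectors (Ifit1, Rsad2, Oasl1) to the transcription factors of the response itself (Stat2, Irf9, Irf7). They were listed by name. Of the 31 genes, 30 had a row in both count tables, which list 32285 genes, and Mx1 was not analysed here. Type I interferons (interferon-alpha and interferon-beta) bind a receptor made of Ifnar1 and Ifnar2, whose kinases Jak1 and Tyk2 act on Stat2 and other factors. Stat2 and Irf9 are parts of the complex ISGF3, which binds the interferon-stimulated response element in the promoters of its targets. In the brain this response is known in glia, endothelium, choroid plexus and infiltrating leukocytes, and interferon-gamma, which signals through other receptor chains, raises a partly overlapping set of genes.

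The material was brain of C57BL mice, 8 to 13 weeks old, in a model resembling neuromyelitis optica spectrum disorder, an autoimmune disease in which antibodies to the astrocyte water channel aquaporin-4 are common. Titles give a time of 24 h. The tissue was digested with enzymes and measured by droplet single-cell RNA sequencing with 10x Genomics 3′ chemistry, in which each captured transcript carries a unique molecular identifier (UMI). There were 2 libraries, both from diseased brain: 1 of CD45-negative cells (glia, vessel, choroid plexus and neural cells) and 1 of CD45-positive cells (leukocytes and microglia, both of which carry CD45). The treatment of the animals, the way the subsets were separated and the number of mice per library were not given in the sources, and no untreated library was analysed here. With 1 library per subset there is no replicate check, so no p-value is given, and every difference below compares these libraries and not the conditions in general.

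After filtering, 12860 of 14524 barcodes (88.5%) were kept in the CD45-negative library and 8433 of 8662 (97.4%) in the CD45-positive library. They held 82926190 and 74107097 UMIs, with medians of 5413 and 6100 UMIs per cell. Levels are given as UMIs per 1000000 UMIs of the cells summed (CPM). Their 95% intervals are exact Poisson intervals, which, like the intervals of ratios and shares, cover counting error only. In these libraries 3 UMIs correspond to 0.0362 and 0.0405 CPM. The libraries shared 27 barcode sequences, of which 25 passed the filters in both. Classes of cells were set from clusters made without the 30 genes and without the listed interferon pathway genes, and named from fixed marker genes. Some genes higher in the strongly responding cells described below, such as Gm4951, Ddx60 and Ifi205, were on no list and were not left out. Ifi205 was also a marker gene for naming conventional dendritic-like cells. Of 75 clusters 21 stayed unnamed.

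The promoter sequences that the response acts on are shown first, because ISGF3 binds a short element there and the sequences show where its letters were found. Promoters (250 bases before to 50 bases after the start) were taken from RefSeq on GRCm38.p6, and 24 of the 30 genes matched an entry. The letters searched were GAAANNGAAA and, for the other strand, TTTCNNTTTC, a minimal form of the interferon-stimulated response element, and overlapping matches were counted apart. At least 1 match was present in 13 of the 24 promoters (54.2%), against 1079 of 27025 promoters of all genes (3.99%), and 11 of the 24 held none. At least 2 matches were present in 7 of the 24 (29.2%), against 72 of the 27025 (0.266%). A match describes letters and was not tested as a binding site. Below, the part before the start site is printed 5′ to 3′ on the strand of the gene, with matches in capitals, for Isg15, for 3 nearby Ifit genes and for Bst2. Isg15 lay at chr4:156200819-156201068 on the minus strand and held 3 overlapping matches, beginning 78 to 66 bases before the start. Ifit1 lay at chr19:34640639-34640870 on the plus strand, with matches 104 and 85 bases before the start; its print stops 18 bases short of the RefSeq start, where the GENCODE M21 transcript begins. Ifit3 lay at chr19:34583279-34583528 on the plus strand, with matches at 156 and 122 bases. Ifit3b lay at chr19:34607707-34607956 on the plus strand, with matches at 188 and 154 bases. Bst2 lay at chr8:71537473-71537722 on the minus strand, with 2 overlapping matches at 130 and 124 bases.
Isg15: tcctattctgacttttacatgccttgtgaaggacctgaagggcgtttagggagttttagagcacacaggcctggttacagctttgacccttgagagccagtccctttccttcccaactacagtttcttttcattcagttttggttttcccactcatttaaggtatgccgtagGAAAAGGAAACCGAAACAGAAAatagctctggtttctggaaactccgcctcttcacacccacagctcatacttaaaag
Ifit1: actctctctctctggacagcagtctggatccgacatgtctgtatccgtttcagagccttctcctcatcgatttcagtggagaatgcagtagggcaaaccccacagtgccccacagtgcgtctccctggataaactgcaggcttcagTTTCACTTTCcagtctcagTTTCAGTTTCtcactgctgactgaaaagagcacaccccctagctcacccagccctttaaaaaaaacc
Ifit3: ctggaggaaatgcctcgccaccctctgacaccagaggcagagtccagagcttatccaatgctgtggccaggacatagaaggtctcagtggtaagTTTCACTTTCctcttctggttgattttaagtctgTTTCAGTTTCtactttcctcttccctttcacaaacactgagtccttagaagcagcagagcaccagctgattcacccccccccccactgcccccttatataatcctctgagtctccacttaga
Ifit3b: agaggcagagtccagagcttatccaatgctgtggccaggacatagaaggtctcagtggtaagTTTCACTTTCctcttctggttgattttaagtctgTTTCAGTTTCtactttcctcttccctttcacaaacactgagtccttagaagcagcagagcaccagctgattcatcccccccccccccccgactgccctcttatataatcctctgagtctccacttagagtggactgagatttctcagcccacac
Bst2: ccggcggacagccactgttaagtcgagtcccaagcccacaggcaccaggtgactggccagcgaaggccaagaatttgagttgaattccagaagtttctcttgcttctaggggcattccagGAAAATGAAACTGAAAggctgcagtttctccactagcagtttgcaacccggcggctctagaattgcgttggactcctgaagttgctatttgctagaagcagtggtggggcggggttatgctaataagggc
The Ifit3 and Ifit3b windows were near copies: 259 of 260 aligned bases were identical, with 80 positions set against gaps because the windows begin at different points of the shared stretch. Of the 90-base words in the last 500 bases of the Ifit3 transcript, where 3′ reads fall, 6.57% occurred anywhere in an Ifit3b transcript. The same search from the end of Ifit3b found 0%. From the end of Oas1a, 42.3% of the words were in its neighbour Oas1g. The treatment of such reads in the counting was not given, so the split between these copies is uncertain. In the GENCODE M21 annotation of the same build, Ifit2, Ifit3, Ifit3b and Ifit1 lie in 1 stretch of chromosome 19, Oasl2 beside Oasl1 on chromosome 5 with Oas3 and Oas1a far along the same chromosome, and Rsad2 beside Cmpk2 on chromosome 12.

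Summed over all cells, the 30 genes stood at 2402 CPM (2392 to 2413) in the CD45-negative library and 4281 CPM (4266 to 4296) in the CD45-positive library, a ratio of 1.78 (log2 0.83). Of the 30, 11 were at least 2-fold higher in the CD45-positive library, where 16.5% of 18379 genes with at least 20 UMIs were. Another 2, Ifit3b and Ifi44, were at least 2-fold higher in the CD45-negative library, where 41.0% of all genes were. The median log2 ratio of the members was 0.46, against -0.57 over all genes. The CD45 gate decides which cells enter each library, so these levels describe mixtures of cells, and the classes below take them apart. In the dot plot of library levels, Oas3, Sp100 and Zbp1 showed the widest gaps toward the CD45-positive side.

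**Figure D1:**
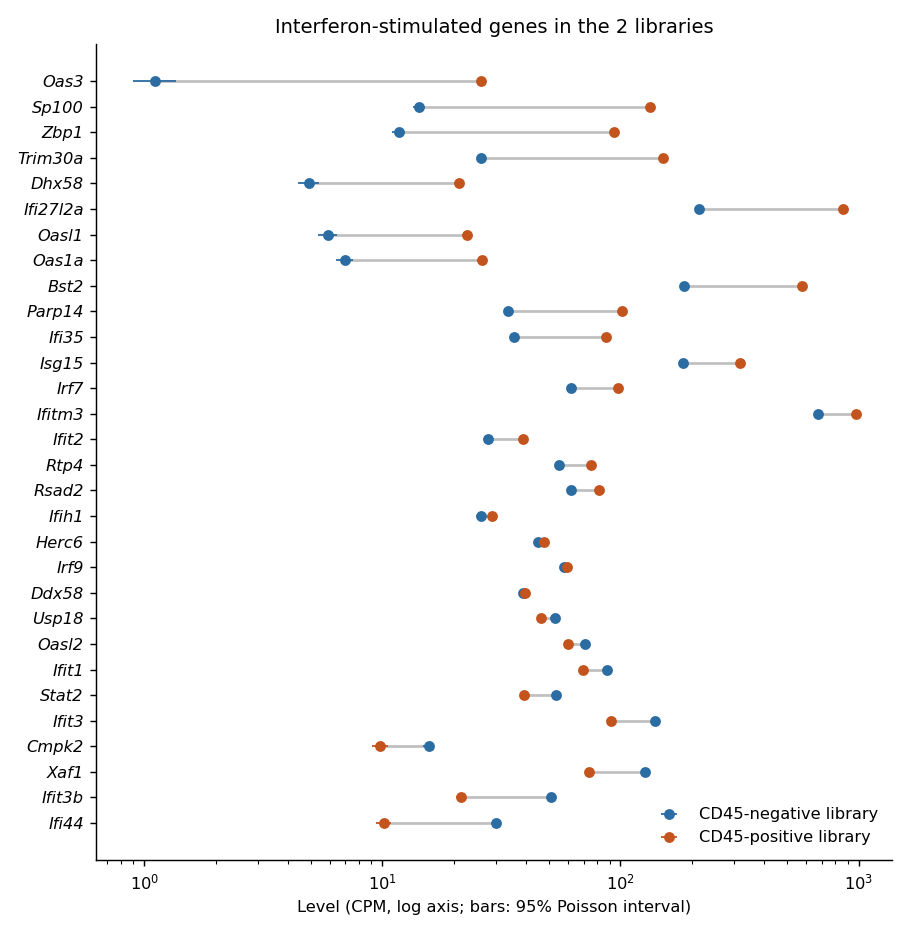
Level of each of the 30 interferon-stimulated genes in the CD45-negative (blue) and CD45-positive (orange) library, in CPM on a log axis, ordered by ratio; bars are 95% Poisson intervals. Oas3, at 1.11 against 26.1 CPM, stands at the top, and Ifi44, at 30.0 against 10.1 CPM, at the bottom.

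The RNA-binding Ifit proteins, which block translation of foreign RNA, summed to 305 CPM in the CD45-negative library against 221 CPM, a log2 ratio of -0.46 that other scalings removed (0.0037 and 0.054, below). Ifit3 stood at 139 against 91.7 CPM and Ifit1 at 87.6 against 69.5. Ifit3b stood at 50.9 against 21.4 CPM. Only Ifit2 of this family was higher in the CD45-positive library, at 38.8 against 27.8 CPM. Since the libraries hold different cells, another scaling moved these sides. With trimmed-mean (TMM) or median-of-ratios factors the log2 ratio of every gene shifted by 0.47 or 0.52 toward the CD45-positive library. Ifit1, Oasl2, Usp18 and Stat2 then changed side, so that 25 rather than 21 of the 30 genes were higher in the CD45-positive library, while Ifit3, Ifit3b, Cmpk2, Ifi44 and Xaf1 stayed higher in the CD45-negative library and only Ifi44 by 2-fold or more. On the CD45-positive side the number at least 2-fold higher rose from 11 to 13 and 15, with Isg15 and Irf7 added under both scalings.

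The 2′-5′-oligoadenylate synthetase family, which senses double-stranded RNA, summed to 84.9 CPM outside and 135 CPM inside the leukocyte gate. Its genes differed from each other. Oas3 stood at 1.11 against 26.1 CPM (23.5-fold), Oas1a at 6.96 against 26.1 and Oasl1 at 5.90 against 22.7. Oasl2 went the other way, at 70.9 against 60.1 CPM. Thus most of this family's UMIs outside the leukocyte gate came from Oasl2 alone. In the ISG15 system, the ubiquitin-like modifier Isg15 stood at 184 against 318 CPM (1.73-fold). Usp18, which removes ISG15 from proteins and damps the receptor, stood at 53.1 against 46.5 CPM, and the ligase Herc6 at 45.1 against 47.9.

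Signal and transcription factors stayed under 2-fold between the libraries in CPM. Stat2 stood at 53.9 against 39.2 CPM, Irf9 at 58.2 against 59.8. Irf7, which amplifies interferon transcription, stood at 61.9 against 98.0 CPM (log2 0.66), and passed 2-fold under TMM and median-of-ratios scaling (log2 1.13 and 1.18). The nucleic acid sensors split as well: Ifih1 (MDA5) at 25.9 against 28.9 CPM and Ddx58 (RIG-I) at 39.0 against 39.9 were close, whereas Dhx58 (LGP2) stood at 4.91 against 21.1. Zbp1, a sensor of Z-form nucleic acid linked to cell death, stood at 11.7 against 94.3 CPM (8.03-fold).

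Among the membrane proteins that restrict virus entry and release, Ifitm3 stood at 676 against 971 CPM and Bst2 (tetherin) at 185 against 580 (3.13-fold). Rsad2 (viperin), which makes an antiviral nucleotide, stood at 62.3 against 81.3 CPM, and its chromosomal neighbour Cmpk2, a nucleotide kinase, at 15.7 against 9.78. The neighbours therefore lay on opposite sides. Of the other genes, Sp100, a nuclear body protein, stood at 14.3 against 133 CPM (9.31-fold), Trim30a at 26 against 150 (5.79-fold) and Ifi27l2a at 213 against 859 (4.03-fold). Parp14, an ADP-ribosyltransferase, stood at 33.7 against 101 CPM and Ifi35 at 35.6 against 87.1. Rtp4 stood at 55.4 against 75.4 CPM. Xaf1, an inhibitor of XIAP, stood at 127 against 73.8 and Ifi44 at 30.0 against 10.1, both higher in the CD45-negative library.

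Within the CD45-negative library the choroid plexus epithelial-like cells, 169 cells that make cerebrospinal fluid and are marked by Ttr, had the highest summed level of the named classes, at 12783 CPM (12610 to 12957). Endothelial-like cells followed at 4891 CPM. Pericyte-like cells stood at 3094, fibroblast-like cells at 2980 and smooth muscle-like cells at 2929 CPM. Neighbouring intervals in that last group overlapped, as did those of microglia-like (2160) and neuroblast-like (2136) cells. Below them were cycling precursor-like cells at 1564, oligodendrocyte-like cells at 1259 and astrocyte-like cells at 1011 CPM. The lowest class on this sum was also the most numerous, with 5227 astrocyte-like cells. The pericyte-like class does not hold an unnamed cluster of 307 cells led by Ccl11, Nts and Il11, described below. That cluster scored highest for pericyte markers but had leading genes of fibroblasts.

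In the CD45-positive library monocyte-derived-like cells led the named classes at 13834 CPM (13673 to 13997), followed by conventional dendritic-like cells at 10706 and neutrophil-like cells at 8731. A cluster led by Mrc1 and F13a1 stood at 5889 and T cell-like cells at 5673 CPM. Microglia-like cells, the brain's resident macrophages, stood at 2115 CPM over 3154 cells, NK cell-like cells at 1900, astrocyte-like cells at 1529 and type 2 innate lymphoid-like cells at 1377. The last pair of intervals overlapped. A large share of these sums came from Ifitm3, Bst2 and Ifi27l2a, which many resting cells also carry. The sum was therefore also taken over 21 core members, leaving out these 3 and Stat2, Irf9, Ifi35, Trim30a, Parp14 and Sp100. On core members choroid plexus epithelial-like cells still led the CD45-negative library, at 4872 CPM. In the CD45-positive library neutrophil-like cells came first, at 5189 CPM, ahead of monocyte-derived-like cells at 4318. Neuroblast-like cells also moved up, to 1194 CPM, above pericyte-like cells at 942. Microglia-like cells were the lowest class of both libraries on core members, at 575 and 495 CPM. In the CD45-negative library their interval overlapped those of astrocyte-like (640) and oligodendrocyte-like (641) cells.

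**Figure D2:**
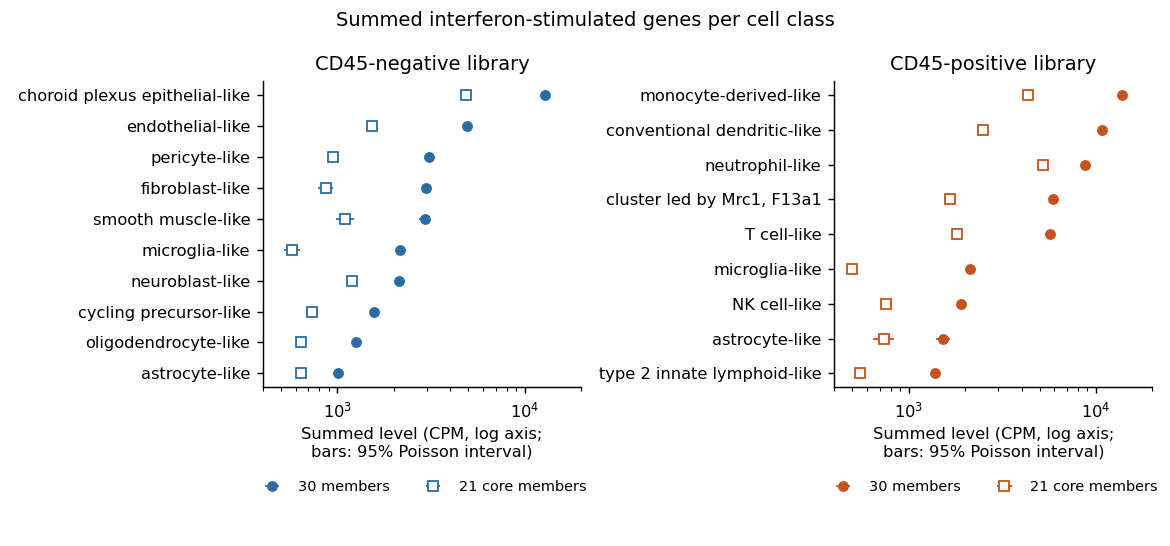
Summed level of the 30 genes (filled circles) and of the 21 core members (open squares) in each cell class, in CPM on a log axis with 95% Poisson intervals, for the CD45-negative (left) and CD45-positive (right) library. Choroid plexus epithelial-like and monocyte-derived-like cells lead the sums over 30 genes, and neutrophil-like cells pass monocyte-derived-like cells on core members.

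Several of these classes carried markers of other cells or differed inside. Neutrophil-like cells held microglia markers at 11466 CPM, close to the 13293 CPM of microglia-like cells themselves. Nearly all of these lay in 1 of its 2 clusters, led by Acod1 and Stfa2l1 (44 cells, median 15325 UMIs, microglia markers at 13106 CPM). The other cluster, led by Retnlg and S100a9 (38 cells, median 3336 UMIs), had neutrophil markers at 84182 CPM and microglia markers at 2646. Its 30 genes summed to 14170 CPM and its core members to 7722, against 7719 and 4718 in the cluster with microglia markers. The sums were thus higher in the cluster with fewer microglia markers. Single members differed: Ifit1 stood at 553 and 550 CPM, and Bst2 was lower there, at 260 against 427. The part of microglia RNA in these levels was not tested. The cluster led by Mrc1 and F13a1 (109 cells) was mixed and is called by its leading genes: of its 10 leading genes 4 were on the border macrophage list and 3 on the monocyte list. Its border macrophage markers stood at 978 CPM, below the 1350 CPM of monocyte-derived-like cells, its monocyte markers at 3622 and its microglia markers at 10824 CPM, and the part of this mixture in its member level was not tested. Monocyte-derived-like cells fell into a cluster led by Chil3, at 16493 CPM, and another led by Arg1, at 8328.

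The choroid plexus epithelial-like cells were nearly free of leukocyte markers, with microglia markers at 31.2, T cell markers at 1.22 and monocyte markers at 33.7 CPM. Their neutrophil list read 1894 CPM, of which Lcn2, which epithelia and glia also make, gave 1890. Their clusters differed: the largest, led by the metalloproteinase genes Mmp12 and Mmp3 (65 cells), had 16675 CPM of members, and the cluster led by Prlr and Ttr (24 cells) had 8489. The lowest was a cluster of 25 cells with a median of 783 UMIs, at 5015 CPM.

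Against the rest of their library, 23 of 30 members were at least 2-fold higher in choroid plexus epithelial-like cells, where 12% of 17255 genes were, and 2 were at least 2-fold lower, where 46.2% of all genes were. The same was so for 11 members in endothelial-like cells (12% of all genes). Of 14781 genes in the CD45-positive library, 21 members were at least 2-fold higher in monocyte-derived-like cells (7.47% of all genes), 15 in neutrophil-like cells (10.2%), 13 in conventional dendritic-like cells (8.12%) and 11 in T cell-like cells (11.9%). On the low side, 24 members were at least 2-fold lower in microglia-like cells of the CD45-positive library (22.1% of all genes). In the CD45-negative library 21 were lower in astrocyte-like cells (30.6%) and 19 in oligodendrocyte-like cells (43.7%). The oligodendrocyte-like share of 19 in 30 lies closest to its background of these 3.

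Choroid plexus epithelial-like cells held the highest level of 21 of the 30 genes in the CD45-negative library. Endothelial-like cells led for Stat2, Irf9, Rsad2, Ifi35 and Sp100, smooth muscle-like cells for Ifit2, Ddx58 and Parp14, and neuroblast-like cells for Oasl2. Of these genes only Sp100 had intervals of the leading and the next class that did not overlap. Where choroid plexus epithelial-like cells led, the intervals overlapped for Oasl1, Oas3, Cmpk2 and Trim30a. In the CD45-positive library neutrophil-like cells led for 13 genes and monocyte-derived-like cells for 11. Conventional dendritic-like cells led for Stat2, Bst2, Ifitm3, Ifi44 and Ifi35, and T cell-like cells for Sp100. Intervals of the leading and the next class overlapped for Ifit3b, Usp18, Herc6, Irf9 and Ddx58 (neutrophil-like cells leading). They also overlapped for Ifit2, Oas3, Isg15, Ifih1, Dhx58 and Parp14 (monocyte-derived-like) and for Stat2, Ifitm3 and Ifi35 (conventional dendritic-like). The map of levels by class shows that no single order of classes held for all genes.

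**Figure D3:**
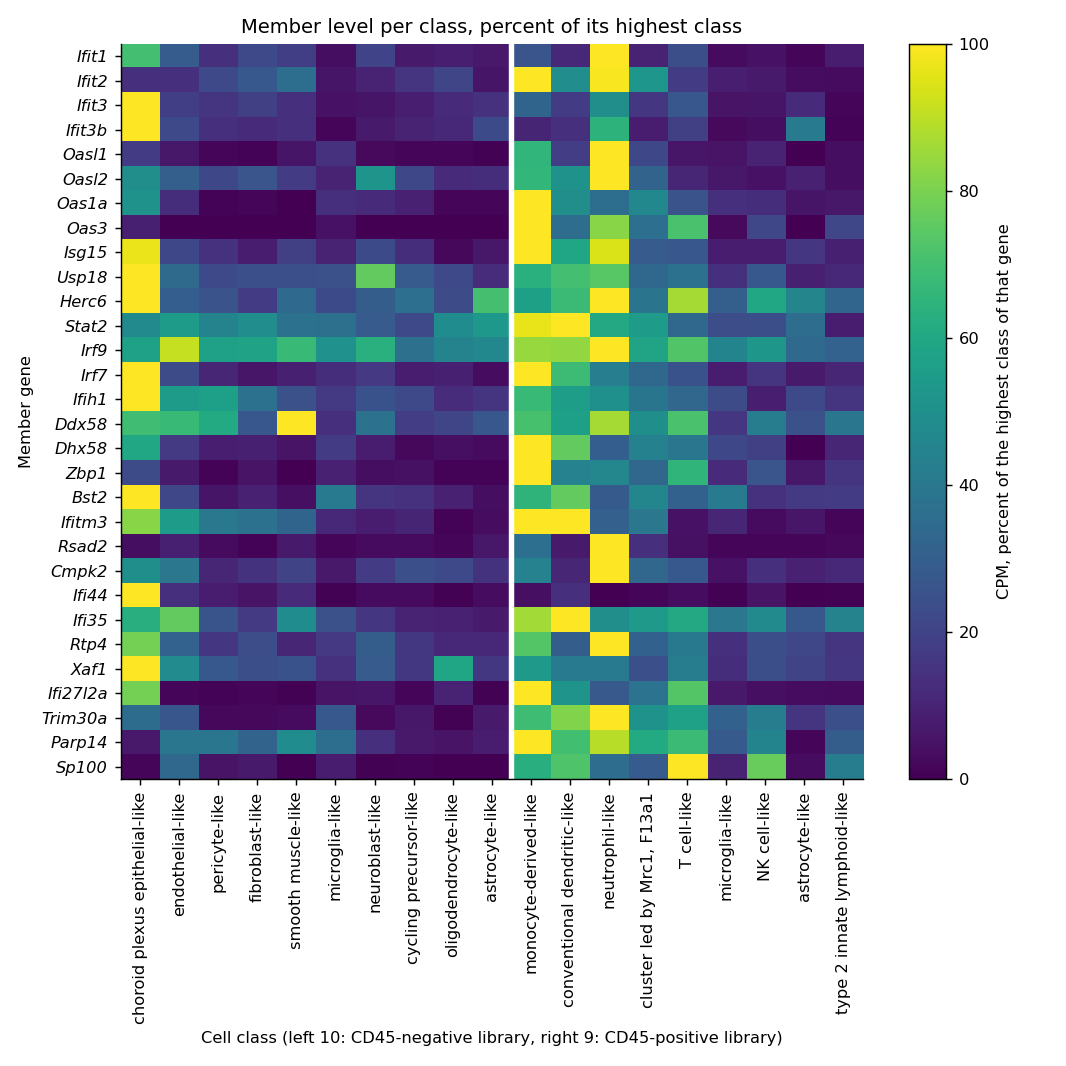
Level of each member (vertical axis) in each cell class (horizontal axis; 10 classes of the CD45-negative library left of the white line, 9 of the CD45-positive library right of it), as percent of that gene's highest class; yellow is 100 and dark blue 0. Choroid plexus epithelial-like, monocyte-derived-like and neutrophil-like columns are bright for most genes, while Sp100 peaks in T cell-like cells and Ifi44 in choroid plexus epithelial-like cells.

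Ifit3 ranged from 667 CPM in choroid plexus epithelial-like cells to 32.0 in microglia-like cells of the CD45-negative library, with 125 in endothelial-like and 95.9 in astrocyte-like cells. Among CD45-positive cells it ranged from 329 CPM in neutrophil-like cells to 11.6 in type 2 innate lymphoid-like cells, with 181 in T cell-like cells. Ifit1 followed a like order but was low in astrocyte-like cells, at 38.2 CPM, against 161 in endothelial-like, 386 in choroid plexus epithelial-like and 551 in neutrophil-like cells. Astrocyte-like cells thus stood closer to endothelial-like cells for Ifit3 than for Ifit1.

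Isg15 stood at 1317 CPM in choroid plexus epithelial-like cells, 307 in neuroblast-like cells, 295 in endothelial-like cells and 28.4 in oligodendrocyte-like cells, the lowest class. Among leukocytes it stood at 1355 CPM in monocyte-derived-like, 1278 in neutrophil-like, 797 in conventional dendritic-like, 370 in T cell-like and 103 in microglia-like cells. Usp18 varied less, from 164 CPM in choroid plexus epithelial-like cells and 125 in neuroblast-like cells to 20.9 in astrocyte-like cells. Across the CD45-positive classes it varied from 121 CPM in neutrophil-like cells to 14.7 in astrocyte-like cells, and was 22.4 in microglia-like cells.

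Oasl2 was the gene on which neuroblast-like cells, immature neurons marked by Sox11 and Dlx genes, led their library, at 163 CPM against 156 in choroid plexus epithelial-like cells and 41.1 in astrocyte-like cells. The neuroblast-like and choroid plexus epithelial-like intervals overlapped (153 to 175 and 138 to 177 CPM). The highest Oasl2 level of all classes was 315 CPM in neutrophil-like cells and the lowest 11.6 in type 2 innate lymphoid-like cells. Irf7 stood at 449 CPM in monocyte-derived-like, 448 in choroid plexus epithelial-like and 308 in conventional dendritic-like cells, and at 33.7 in microglia-like cells of the CD45-positive library. Its lowest level was 15.3 CPM, in CD45-negative astrocyte-like cells.

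Zbp1 was highest in leukocyte classes, at 316 CPM in monocyte-derived-like cells, 207 in T cell-like cells and 38.2 in microglia-like cells. Its highest level outside the leukocyte gate was 71.7 CPM, in choroid plexus epithelial-like cells, and in astrocyte-like cells it stood at 2.99. Rsad2 was uneven among leukocytes: 934 CPM in neutrophil-like cells, 343 in monocyte-derived-like cells, 66.1 in conventional dendritic-like cells and 15 in microglia-like cells. In choroid plexus epithelial-like cells it stood at 33.1 CPM, below the 60 CPM of astrocyte-like cells and the 83.7 CPM of endothelial-like cells. As a class, choroid plexus epithelial-like cells, which stood above both for Isg15, thus stood below both for Rsad2. Their clusters differed: the one led by Cxcl5 and Mmp3 (27 cells) had 107 CPM of Rsad2, and the others 0 to 33.7.

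Ifitm3 was high in choroid plexus and vessel classes and in myeloid classes other than microglia-like cells. It stood at 3657 CPM in choroid plexus epithelial-like, 2439 in endothelial-like, 1782 in pericyte-like and 1445 in smooth muscle-like cells, against 145 in astrocyte-like and 42.3 in oligodendrocyte-like cells. Conventional dendritic-like cells had 4458 CPM and monocyte-derived-like cells 4448, against 478 in microglia-like cells of the CD45-positive library. Ifi27l2a, a mitochondrial protein gene, had 2478 CPM in choroid plexus epithelial-like cells and 318 in oligodendrocyte-like cells but 53.9 in endothelial-like and 13.5 in astrocyte-like cells. Across the gate it stood at 3133 CPM in monocyte-derived-like, 2296 in T cell-like and 211 in microglia-like cells. Oligodendrocyte-like cells, low for most members, also had 179 CPM of Xaf1, below the 303 CPM of choroid plexus epithelial-like cells and above the 146 CPM of endothelial-like cells.

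Shares of cells with a UMI were compared after each cell was thinned to 2000 UMIs, which left out 1853 and 1983 shallower cells and kept 11007 and 6450. Ifi27l2a was then found in 89.4% of choroid plexus epithelial-like cells and 77.5% of T cell-like cells, and in 2.78% of astrocyte-like cells (87.6%, 84.4% and 6.50% of all cells, unthinned). Ifitm3 was found in 86.4% of endothelial-like cells and 7.03% of oligodendrocyte-like cells (82.6% and 23.0% unthinned). Ifit3 was found in 56.7% of choroid plexus epithelial-like cells, 11.8% of astrocyte-like cells and 3.90% of microglia-like cells of the CD45-positive library (68.0%, 21.4% and 13.3% unthinned). Isg15 was found in 63.8% of choroid plexus epithelial-like, 28.9% of endothelial-like and 3.03% of oligodendrocyte-like cells (65.7%, 39.7% and 8.81% unthinned). The part of RNA free in the droplets in these shares was not estimated, since no class here is known to lack these genes.

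Cells were called strongly responding when at least 3 of the 21 core members had a UMI after thinning. This is a range of a count per cell and not a cell type. By this rule 17.6% of CD45-negative cells and 25.3% of CD45-positive cells responded strongly (34.3% and 57.8% before thinning). Just under the limit, 1025 and 791 cells had exactly 2 core members, and just inside it 594 and 455 had exactly 3. The most seen in a cell was 16 and 17.

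Strongly responding cells made up 70.2% (61.9 to 77.6, Clopper-Pearson) of choroid plexus epithelial-like cells and 32.4% (29.6 to 35.2) of endothelial-like cells. In neuroblast-like cells the share was 25.7%, in fibroblast-like 16.7%, in pericyte-like 14.1%, in cycling precursor-like 13.9% and in smooth muscle-like 12.1%. Astrocyte-like cells reached 11% (501 of 4573 cells) and oligodendrocyte-like cells 7.70% (160 of 2078). Before thinning these 2 classes read 23.6% and 22%, choroid plexus epithelial-like cells 87.9% and endothelial-like cells 61.2%.

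On the leukocyte side, 72.6% (60.9 to 82.4) of neutrophil-like and 67.9% (60.2 to 74.8) of monocyte-derived-like cells responded strongly, and their intervals overlapped. In the neutrophil-like cluster without most of the microglia markers the share was 69.0% (20 of 29 cells, 49.2 to 84.7). Conventional dendritic-like cells reached 46.3%, the cluster led by Mrc1 and F13a1 40.2%, T cell-like 39.1% (706 of 1807 cells) and NK cell-like 12.8%. Microglia-like cells reached 8.23% (230 of 2795 cells), close to the 8.03% of type 2 innate lymphoid-like cells. Before thinning the shares were 91.8% in neutrophil-like, 93.5% in monocyte-derived-like, 68.8% in T cell-like and 43.0% in microglia-like cells.

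**Figure D4:**
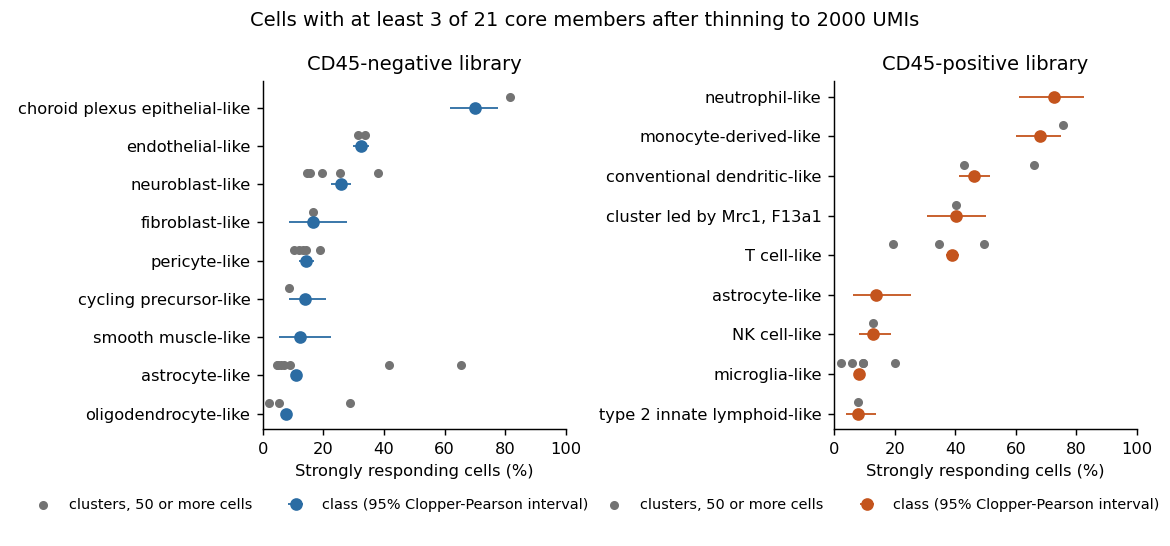
Share of cells with UMIs of at least 3 of 21 core members after thinning to 2000 UMIs, per class (coloured, with 95% Clopper-Pearson interval) and per cluster with at least 50 cells at that depth (grey, drawn above its class). Astrocyte-like cells stand at 11%, but their clusters run from 4.83% to 65.4%.

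Responding cells were unevenly spread inside the glial classes. Of the 7 astrocyte-like clusters, 2 were led by Ptx3, a secreted pattern-recognition protein. One of these, also led by Tgm1 and Gfap, had 65.4% strongly responding cells. The other, also led by F830016B08Rik and Gm4951, had 41.6%, whereas the remaining clusters had 4.83% to 9.03%. The pair held 11% of the astrocyte-like cells at that depth and 51.5% of the strongly responding ones (258 of 501). Outside it, 243 of 4070 cells responded strongly (5.97%). F830016B08Rik and Gm4951 were not among the genes left out of the clustering. Both were also among the leading genes of strongly responding astrocyte-like cells, so clusters and response were not set apart fully. The part of such genes in these shares was not tested. Among oligodendrocyte-like cells, the cluster led by Klk6 had 28.7%, against 5.24% and 1.90% in the others. Among microglia-like cells the cluster led by Marco and Lpl had 20.2% and the one led by Slc2a5 and Siglech 2.35%.

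T cell-like clusters differed too. The cluster led by Cd8b1 and Cd8a had 49.5% strongly responding cells, the one led by Tnfrsf4 and Cd4 34.8% and the one led by Cd163l1 and Trdc 19.4%. In conventional dendritic-like cells the cluster led by Ccl22 and Ccr7, genes of migrating dendritic cells, had 66.1% and the other 42.9%. Endothelial-like clusters were even, at 31.4% and 33.8% for the larger ones. Some unnamed clusters ranked with the highest: a CD45-negative one led by Ccl11, Nts and Il11 had 74.2% and summed to 14778 CPM, and a CD45-positive one led by Ifitm6 and Ms4a4c had 73.6% and 16353 CPM.

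Core members were found together in cells more often than their shares multiplied would give. Over all 210 pairs, the observed number of cells with both genes was 3.87 times the multiplied number in oligodendrocyte-like cells, 3.39 times in astrocyte-like and 3.05 times in microglia-like cells. It was 2.22 times in neuroblast-like, 1.82 times in T cell-like, 1.80 times in endothelial-like, 1.42 times in neutrophil-like and 1.37 times in choroid plexus epithelial-like cells. In astrocyte-like cells all 140 pairs with a multiplied number over 1 lay above it, as did 148 of 150 in microglia-like and 208 of 209 in T cell-like cells. Counted instead as cells with at least 3 core members, the observed number was 1.82 times that given by independent members in astrocyte-like and 1.87 times in microglia-like cells. It was below that number in endothelial-like (0.885 times), T cell-like (0.787), choroid plexus epithelial-like (0.760), neutrophil-like (0.754), monocyte-derived-like (0.740) and conventional dendritic-like cells (0.739), where the share of strongly responding cells was large. Part of the excess of pairs was between clusters. Multiplied within clusters, the ratio was 1.97 in astrocyte-like, 2.60 in oligodendrocyte-like, 2.75 in microglia-like, 1.75 in T cell-like and 1.79 in endothelial-like cells. These are counts over cells of 1 library each and carry no test.

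Pairs with Ifit3 show the same. In astrocyte-like cells 133 cells had both Ifit1 and Ifit3, where multiplied shares give 30.1, and 174 had both Ifit3 and Isg15, where they give 46.0. In oligodendrocyte-like cells 40 had both Ifit1 and Ifit3, against 4.89, and 29 had both Ifit3 and Rtp4, against 4.83. T cell-like cells had 156 with both Ifit1 and Ifit3, against 69.2. Ifitm3 and Ifi27l2a paired with Ifit3 more loosely. Ifit3 with Ifitm3 gave 198 against 89.7 in astrocyte-like cells and 145 against 136 in endothelial-like cells. Ifit3 with Ifi27l2a gave 23 against 14.9 in astrocyte-like cells and 343 against 308 in T cell-like cells. The looser pairs did not simply follow how many cells carried a gene. In astrocyte-like cells Ifi27l2a was in 127 cells and Irf7 in 139, and Ifit3 with Irf7 gave 57 against 16.4.

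The 9 members outside the core list were not used to call a cell, and most were more frequent in strongly responding cells. In astrocyte-like cells, after thinning, Ifitm3 was found in 45.1% of strongly responding and 13.2% of other cells, Bst2 in 34.1% and 4.76%, Stat2 in 28.7% and 7.64% and Trim30a in 24.2% and 1.5%. Ifi27l2a was rare in both groups there, at 4.19% and 2.60%, and Sp100 stood at 0.200% and 0.172%. In oligodendrocyte-like cells the order was another: Bst2 in 55.0% and 6.93%, Ifi27l2a in 35.0% and 7.98%, but Ifitm3 in 10.6% and 6.73%. In T cell-like cells Bst2 was found in 63.6% and 34.3%, Trim30a in 45.3% and 20.3%, and Ifi27l2a in 86.3% and 71.9%. Microglia-like cells had Bst2 in 86.5% and 59.0% and Ifitm3 in 73.9% and 42.1%, and endothelial-like cells had Ifitm3 in 91.9% and 83.7%.

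Genes that are no members were then compared between strongly responding and other cells in the 4 classes with the most such cells. In astrocyte-like cells 24 of 26 measured genes of a list of further type I interferon-induced genes (such as Eif2ak2 and the Slfn and Phf11 genes) were at least 2-fold higher, where 5.57% of 14224 genes were, and the list summed to 2622 against 370 CPM (7.08-fold). All 13 measured genes of a list raised mainly by interferon-gamma, the guanylate-binding proteins and immunity-related GTPases among them, were at least 2-fold higher as well, at 2490 against 217 CPM (11.5-fold). Outside the clusters led by Ptx3 the list ratios were lower, at 5.24 and 8.08. There 21 of 25 and 12 of 12 measured genes passed 2-fold (4.51% of all genes). In T cell-like cells 26 of 30 further type I genes passed 2-fold (1.35% of all genes), at 4731 against 1987 CPM, and 11 of 17 interferon-gamma genes, at 1692 against 711 CPM. In endothelial-like cells 12 of 23 and 14 of 15 passed (1.11% of all genes), with list ratios of 1.87 and 2.60. In microglia-like cells 21 of 30 and 13 of 17 passed (3.58% of all genes), with list ratios of 2.83 and 1.89. Receptor chains and their kinases did not follow: none of the 8 measured in each class passed 2-fold. Their sum stood at 358 against 335 CPM in astrocyte-like and 1068 against 1220 CPM in microglia-like cells.

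The leading genes differed between classes. In astrocyte-like cells Cxcl10, a chemokine that draws T cells, stood at 1157 CPM in strongly responding and 10.4 CPM in other cells (111-fold, 98.2 to 127), found in 39.1% and 2.87% of them. Next came Phf11d (37.1-fold), Ifi47 (32.8-fold), Slfn8 (29.9-fold) and Iigp1, an immunity-related GTPase, at 357 against 12.5 CPM (28.5-fold). Ccl2, at 293 against 13.2 CPM, and Ptx3, at 439 against 21.6, were also among the leading 20. Outside the clusters led by Ptx3, 17 of these 20 genes were still at least 2-fold higher (4.51% of all genes), Cxcl10 at 488 against 6.60 CPM (73.8-fold). For AA467197 (6 UMIs) and Sphk1 (5 UMIs) among the 17, the interval of the ratio included 1. Ccl2, Ccl7 and Tgm1 were not, with ratios of 0.467, 0.521 and 1.22.

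T cell-like cells were led by Iigp1, at 95.9 against 15.4 CPM (6.24-fold), Cxcl10 at 76.4 against 13.3 (5.74-fold) and Slfn5 at 258 against 52.4 (4.92-fold). Endothelial-like cells were led by Tgtp2 (7.0-fold) and Ifi47 (3.99-fold), and 11 of their leading 20 genes were on the interferon-gamma list. Microglia-like cells were led by Iigp1, at 22.1 against 1.25 CPM (17.6-fold), Gm4951 (10.1-fold) and Ifi211 (9.01-fold), and 9 of their 20 were on the further type I list. The plot of leading genes shows that ratios reached 111 in astrocyte-like cells and did not pass 17.6 in the other 3 classes.

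**Figure D5:**
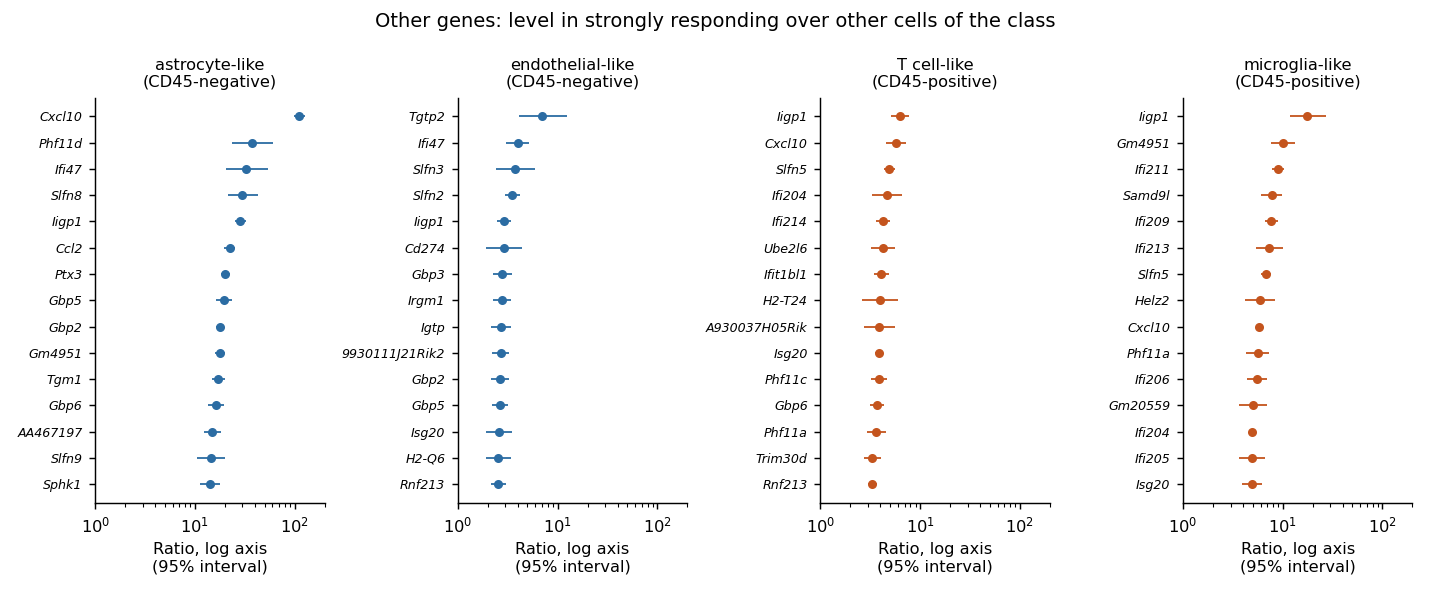
Ratio of the level in strongly responding cells to that in other cells of the same class, on a log axis with 95% intervals, for the 15 leading genes that are no members in each of 4 classes. Cxcl10 in astrocyte-like cells lies far right at 111, while the endothelial-like panel starts at 7.0 for Tgtp2.

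Marker levels and depth are given here beside these comparisons, and their part in them was not tested. Strongly responding and other astrocyte-like cells had medians of 5180 and 5856 UMIs, and T cell-like cells 5699.5 and 5819, whereas oligodendrocyte-like cells had 12342.5 and 8688.5. In strongly responding astrocyte-like cells the neutrophil list read 962 against 122 CPM, of which Lcn2 gave 954 against 115, and Camp was at 0. In T cell-like cells the monocyte list read 2981 against 1486 CPM, with Ly6c2 at 1836 against 850 and Plac8 at 766 against 366, genes that T cells also express. In microglia-like cells the oligodendrocyte list read 166 against 68.3 CPM. As medians over cells, in UMIs per 10000 UMIs of a cell, the monocyte list stood at 14.2 in strongly responding and 6.75 in other T cell-like cells, and their own T cell list at 62.0 and 59.6. In astrocyte-like cells the own list stood at 187 and 196 and the neutrophil list at 0 and 0. In microglia-like cells the own list stood at 102 and 138.

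The ligands themselves were almost unseen. Of 17 type I interferon genes, Ifnb1 had 14 UMIs among CD45-positive cells and 0 among CD45-negative cells, Ifna2 had 1 in each and Ifnk 6 in the CD45-negative library. The other 14 had 0 in both. Of the Ifnb1 UMIs, 13 lay in 6 microglia-like cells, of which 3 were strongly responding. Ifng, the gene of interferon-gamma, had 888 UMIs in the CD45-positive and 3 in the CD45-negative library. T cell-like cells held 683 of them in 255 cells and NK cell-like cells 118 in 51 of 217 cells (23.5%). By cluster, 150 of 628 cells (23.9%) of the one led by Cd8b1 and 103 of 1331 (7.74%) of the one led by Tnfrsf4 and Cd4 had Ifng. In T cell-like cells the ligand list, in which Ifng alone was measured, stood at 43.9 CPM in strongly responding and 64.5 CPM in other cells, a ratio of 0.68 (0.574 to 0.804). The share of cells with an Ifng UMI was not lower, at 100 of 706 (14.2%) against 147 of 1101 (13.4%).

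Upstream of the members, 7 of 9 receptor and kinase genes were at least 2-fold higher among CD45-positive cells and none on the other side, where 16.5% and 41.0% of all genes were; the same background holds for the counts that follow. Ifnar2 stood at 72.3 CPM among CD45-negative and 177 CPM among CD45-positive cells and Ifngr1 at 43.9 against 503, while Ifnar1, at 54.5 against 71.3, and Jak2 stayed under 2-fold. Of 11 sensors and adaptors, 6 were at least 2-fold higher among CD45-positive cells; Tlr7 stood at 1.48 against 65.4 CPM. Tlr3, the receptor for double-stranded RNA, was the only one at least 2-fold higher in the CD45-negative library, at 67.6 against 30.7 CPM. Of the further type I genes 19 of 32 were at least 2-fold higher among CD45-positive cells and 1, Apol9a, among CD45-negative cells. Of 18 measured interferon-gamma genes 8 were, with Iigp1, at 53.2 against 12.2 CPM, and Gbp3, at 54.9 against 20.4, on the other side.

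Astrocyte-like and microglia-like cells had at least 50 cells in each library and allowed a comparison within a class. Microglia-like cells, 87 and 3154 of them, had 2160 CPM of members on the CD45-negative side and 2115 CPM across the gate, a ratio of 0.98 (0.93 to 1.03). Their core members stood at 575 and 495 CPM, a ratio of 0.86 (0.78 to 0.95). Their median depth was 1610 UMIs on the CD45-negative side and 9188 across the gate. Astrocyte-like cells had 1011 and 1529 CPM, a ratio of 1.51 (1.38 to 1.65), and core members stood at 640 and 737 CPM. Isg15 was higher on the CD45-positive side, at 214 against 87.7 CPM, as was Bst2 at 241 against 53.6, whereas Ifit1 stood at 8.80 against 38.2 and Rsad2 at 14.7 against 60. On the CD45-positive side Ifit1 and Rsad2 rested on only 3 and 5 UMIs, and Isg15 and Bst2 on 73 and 82. The 76 astrocyte-like cells of the CD45-positive library also carried microglia markers at 1506 CPM, against 80.0 on the other side, and T cell markers at 141 against 11. Their own markers stood at 16156 against 20544 CPM, and the part of these other-cell transcripts in the difference was not tested. The cells also fell into different clusters: the one led by Tgm1 and Ptx3 held 23.7% of the astrocyte-like cells on the CD45-positive side and 5.36% on the CD45-negative side. Of microglia-like cells, 62.1% on the CD45-negative side lay in the cluster led by Saa3 and Ccl12, against 30.2% on the CD45-positive side.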

How the data were processed

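The values are UMI counts per gene and cell, whole numbers that the authors deposited as 1 matrix per library, per the file headers. Cell Ranger 6.1.2 and the build mm10 are named in the submitters' processing notes, and other settings were not given in the sources used. Barcodes with at least 500 UMIs, at least 200 genes and at most 20% mitochondrial UMIs were kept. The gene minimum removed 52 and 0 barcodes and the mitochondrial limit 858 and 54. Doublets called by Scrublet (804 and 175 cells, 5.54% and 2.02%, at expected rates of 11.6% and 6.93%) were removed. Counts were scaled per cell and clustered (scanpy 1.11.5, 2000 variable genes, 30 components, 15 neighbours, Leiden resolution 2), without the members and the listed pathway genes. Clusters were named from fixed markers. A class needed at least 50 cells, and genes in a comparison at least 20 UMIs. Levels are UMIs summed over cells, per 1000000. Poisson, conditional binomial and Clopper-Pearson intervals came from scipy 1.17.1, and scaling factors from edgeR 4.0.16 and DESeq2 1.42.0 under R 4.3.3, on the counts summed per library. There was no test, since each subset is 1 library. The ratio intervals, the thinning and the pair counts were tested on simulated data. Doublet calls, clustering and the naming of clusters were not.

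The members and lists were chosen with earlier results of these data known. All members are named with their library levels. Class levels are given for the member with the most UMIs in each role group and for Isg15, Ifit1, Irf7, Rsad2 and Usp18. Levels of other members in a class, such as Xaf1 in oligodendrocyte-like cells, and the clusters described inside classes were chosen after their values were seen. Of genes that are no members, the 20 with the highest ratio in each of 4 classes were taken. Alternatives were other scalings, cell filters, doublet handling, clusterings, member sets, thinning depths and limits for a strong response. Mx1 was not analysed here.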

Additional observations from a re-analysis of the deposited data

How the results depend on the processing

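No paired analysis was possible because each subset is 1 library. No member at least 2-fold apart between the libraries changed side under the alternatives run, but Ifit1, Oasl2, Usp18 and Stat2, under 2-fold, did so under TMM and median-of-ratios scaling, as did the Ifit sum. Under TMM and median-of-ratios scaling the log2 ratio of the summed members was 1.30 and 1.35 (0.83 as reported), their median 0.93 and 0.98 (0.46), and 1 member was at least 2-fold higher among CD45-negative cells (2 as reported). The 2 log2 values were 0.81 and 0.44 without mitochondrial genes, 0.86 and 0.49 over all deposited barcodes, 0.81 and 0.45 with a stricter cell filter (1000 UMIs, 10% mitochondrial) and 0.85 and 0.48 with doublet calls kept. The summed level of choroid plexus epithelial-like cells (12783 CPM) and of monocyte-derived-like cells (13834 CPM) was 4872 and 4318 on core members, 5228 and 5326 without Ifitm3, Bst2 and Ifi27l2a, 12461 and 13427 with the stricter filter, 12297 and 12863 with doublet calls kept, 13188 and 13341 with members left in the clustering and 11889 and 14797 as a mean over cells. The monocyte-derived-like value was 14503 at resolution 1, 10041 at resolution 0.5 and 15977 when libraries were clustered apart. Among named classes, choroid plexus epithelial-like cells came first in their library under every alternative run. Monocyte-derived-like cells came first in theirs except on core members or without the 3 genes, when neutrophil-like cells did. At resolution 0.5 the CD45-positive library had only 6 named classes, with no neutrophil-like or conventional dendritic-like class to compare. When libraries were clustered apart, neutrophil-like cells stood below T cell-like cells and the class named from border macrophage markers. Under the other alternatives neutrophil-like cells stood above both. The last class varied with the alternative in both libraries. The strongly responding share of choroid plexus epithelial-like cells (70.2%) was 80.9% with at least 2 core members, 51.8% with at least 5 and 48.7% after thinning to 1000 UMIs. That of neutrophil-like cells (72.6%) was 52.6% after thinning to 1000 UMIs and 85.4% without thinning, over all 82 cells. The observed over multiplied number of pairs in these 2 classes (1.37 and 1.42) was 1.63 and 1.63 after thinning to 1000 UMIs and 1.5 and 1.56 with doublet calls kept. The astrocyte-like log2 ratio between the libraries (0.60) was 0.43 at resolution 1. Chosen after seeing the data, multiplying shares within clusters gave 1.27 for choroid plexus epithelial-like pairs, leaving out the astrocyte-like clusters led by Ptx3 left 10 of the 20 leading genes among the 20 highest ratios, and leaving out the neutrophil-like cluster with microglia markers gave 69.0%. The causes of these shifts were not tested. In all, 41 values for comparisons moved by more than their counting interval or 1.5 times and 33 did not. Among single genes and classes, 164 moved and 94 did not.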

Other observations

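Cxcl10, the chemokine gene that led the strongly responding astrocyte-like cells, had another order over the classes of the CD45-negative library than the summed members. It stood at 212 CPM in microglia-like, 135 in astrocyte-like and 132 in choroid plexus epithelial-like cells, of which the last pair were the lowest and the highest class for the sum of the 30 members. Cycling precursor-like cells followed at 35.1, pericyte-like at 13.6, fibroblast-like at 9.60, smooth muscle-like at 6.64, endothelial-like at 6.59, neuroblast-like at 4.82 and oligodendrocyte-like cells at 4.07 CPM. In the CD45-positive library it was highest in monocyte-derived-like cells, at 767 CPM, with 128 CPM in microglia-like cells. Iigp1, an immunity-related GTPase gene, stood at 183 CPM in smooth muscle-like, 118 in choroid plexus epithelial-like and 90.1 in endothelial-like cells but at 3.44 CPM in monocyte-derived-like and 2.92 CPM in microglia-like cells of the CD45-positive library. Tlr3 stood at 167 CPM in CD45-negative astrocyte-like cells and at 46.5 CPM in choroid plexus epithelial-like cells. Ifnar1, a chain of the type I receptor, stood at 178 CPM in endothelial-like cells and at 11 CPM in choroid plexus epithelial-like cells, the class with the highest member sum of its library. Socs1, a brake on the receptor kinases, stood at 172 CPM in type 2 innate lymphoid-like, 140 in NK cell-like and 135 in T cell-like cells and at 21.4 CPM in neutrophil-like cells, the next highest. These genes were chosen after their values were seen.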
